A study of Mus musculus with 55 samples.

Results

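The comparison described is that of Cnih3 knock-out (KO) females in estrus with KO males, the KO mice that have no estrous stage, across autosomal genes. Its members were chosen by genotype and stage alone, which gave 6 KO estrus mice and 7 KO males, 13 of the 55 mice of the study. RNA of the dorsal hippocampus was sequenced with 1 library per mouse, in WT and Cnih3 KO mice on a C57/BL6j background, as males and as females at each estrous stage staged by vaginal cytology. All 13 mice carried the same constitutive loss of Cnih3, which encodes an auxiliary protein of AMPA-type glutamate receptors, and the labels give no treatment. KO estrus mice were 13 to 20.71 weeks old (median 16.29) and KO males 18.29 to 23.71 weeks (median 18.29). WT estrus mice (n = 7, 16.29 to 20.29 weeks) and WT males (n = 5, 12 to 23.71 weeks) served for the same comparison without the deletion. KO diestrus mice (n = 6, 10.86 to 23.43 weeks) served for the stage. Per the study's methods, the cycle of females was monitored by vaginal lavage on the days before tissue was taken, and no lavage of males is described. Sex, estrous stage and this handling differ together between the KO groups and cannot be told apart in this comparison alone.

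Estrus is the stage after ovulation, when the estradiol peak of proestrus has passed and ovarian steroids are low. Steroid hormones reach hippocampal neurons through nuclear receptors and their coactivators and through signalling at the membrane. Neuronal activity induces the immediate early genes within minutes, and many of these encode transcription factors.

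Total counts ranged from 47373740 to 58799748 in KO estrus mice and from 40797170 to 63547098 in KO males. The labels were checked with 4 Y-linked genes, of which every KO male had at least 282 reads and no KO estrus mouse more than 4. The deposited gene counts do not check the genotype, because the deletion removes only part of Cnih3. Cnih3 in CPM (read counts scaled to the library total) ran from 25.5 to 42 (median 30.5) in KO estrus mice and from 27 to 45.9 (median 34.9) in KO males, and the groups overlapped (log2 fold change 0.00, SE 0.16, FDR = 0.996). Defining transcripts of the labelled tissue were present in every library, with Prox1 of dentate granule cells at 69.9 to 149 CPM and the 10 CA1 pyramidal cell genes together at 398 to 535 CPM. Choroid plexus transcripts varied most between libraries, with a sum of 12 genes from 40.6 to 1360 CPM in KO estrus mice and from 37.4 to 2140 CPM in KO males.

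KO estrus mice differed from KO males at 1187 autosomal genes, 663 higher and 524 lower. A gene was called at an FDR under 0.05 in limma with sample quality weights, and these are 4.26% and 3.37% of the 15549 autosomal genes tested, 7.63% in both directions together. The differences were small, with a median absolute log2 fold change of 0.36 among the genes called, and only 12 of the higher and 5 of the lower genes passed 1 on the log2 scale. All values of the 2 groups were apart for 43 of the higher and 50 of the lower genes, while over all autosomal genes 0.405% were wholly higher and 0.36% wholly lower in KO estrus mice. Every fold change is KO estrus minus KO males unless another pair is named, and 3574 autosomal genes had an unadjusted p under 0.05.

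**Figure D1:**
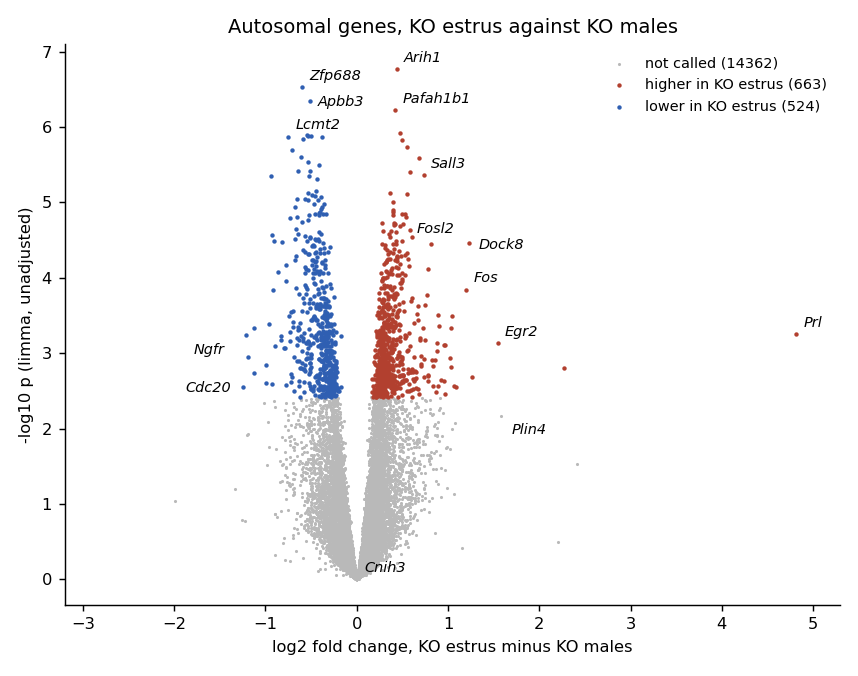
Each point is an autosomal gene, with the log2 fold change of KO estrus minus KO males on the x axis and the -log10 of the unadjusted limma p on the y axis. The 663 genes called higher (red) and the 524 called lower (blue) lie mostly within 1 log2 unit of 0, and Prl stands alone at 4.81.

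The number of genes called depended on single mice, on the test and on age as a covariate. With age in the fit 523 genes were called, and 4 of the 6 KO estrus mice were younger than every KO male. With 1 mouse left out it ranged from 199 to 1740, and it fell to 199 without KO estrus mouse 12_2, 420 without 12_3 and 499 without 9_1. Without KO males it was 283 for mouse 2591, 711 for 2589 and 732 for 2016. The edgeR quasi-likelihood test called 148 genes and voom without sample weights 115. Across these and the other settings 17 higher and 51 lower genes were called in all 22 repeats, and 37 higher and 73 lower genes without each of the 13 mice in turn.

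**Figure D2:**
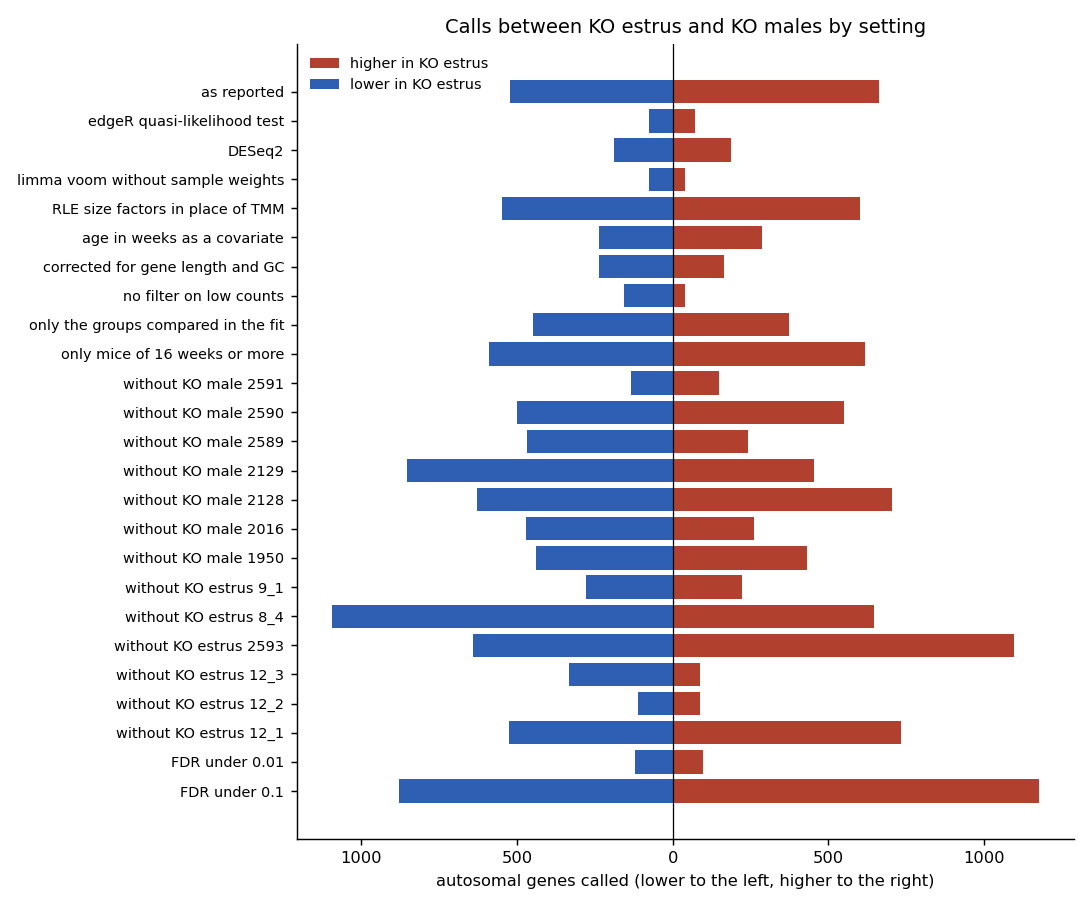
Bars give the autosomal genes called higher (right, red) and lower (left, blue) between KO estrus mice and KO males, as reported and under each other test, covariate, threshold and left-out mouse on the y axis. The total runs from 115 genes without sample weights to 2056 at an FDR under 0.1.

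The 15 genes with the smallest FDR among those higher in KO estrus mice differed by 0.37 to 0.74 on the log2 scale. Arih1, a ubiquitin ligase, ran from 49.6 to 68.3 CPM (median 58.9) in KO estrus mice and from 40.5 to 49.2 CPM (median 44.1) in KO males. No KO male reached the lowest KO estrus mouse, and the gene rose by a log2 fold change of 0.44 (SE 0.07, FDR = 0.000347). Pafah1b1, which regulates the motor dynein, ran from 213 to 283 CPM (median 252) against 166 to 210 CPM (median 188), also without overlap (0.42, SE 0.07, FDR = 0.000882). Ap2b1, a subunit of the clathrin adaptor AP-2, ran from 177 to 303 CPM (median 214) against 123 to 163 CPM (median 152) and rose by 0.49 (SE 0.09, FDR = 0.00121) without overlap. Rian, an imprinted nuclear RNA, ran from 137 to 185 CPM (median 176) against 89.6 to 121 CPM (median 112), again apart (0.56, SE 0.10, FDR = 0.00141). Also in the first 15 were the Hippo pathway kinase Lats1 (0.47), Nufip2 (0.58), the transcription factors Sall3 (0.74), Cebpg (0.37) and Rfx3 (0.53), and the transcription cofactor Zfpm2 (0.39). The others were the postsynaptic protein Lrrc7 (0.56), Prdm2 (0.40), the splicing factor Luc7l (0.39), the nuclear pore protein Ahctf1 (0.50) and Gm38393 (0.68), FDR = 0.00121 to 0.00369. Gm38393 lies within Snhg14 and Snrpn, and the counting is not stated to use strand, so their reads cannot be told apart where they overlap. Of these 15 genes 6 did not overlap between the groups, 14 kept their call without each mouse, and 12 were called in edgeR. Ahctf1 lost it without mouse 12_3 (FDR = 0.0603).

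The 15 genes with the smallest FDR among those lower in KO estrus mice differed by 0.38 to 0.75 in size on the log2 scale. Zfp688, a zinc finger gene, ran from 11.8 to 19.9 CPM (median 15.8) in KO estrus mice and from 18.9 to 36.4 CPM (median 25) in KO males. Of the 6 KO estrus mice 4 lay below every male, and the gene fell by 0.60 on the log2 scale (SE 0.10, FDR = 0.000535). Apbb3, which binds the amyloid precursor protein, ran from 32.6 to 42.6 CPM (median 35.4) against 43 to 57.4 CPM (median 51.1) without overlap (-0.51, SE 0.09, FDR = 0.000718), and its span overlaps that of Slc35a4. Pex14, part of the import machinery of peroxisomes, ran from 20.1 to 27.5 CPM (median 22) against 29.5 to 34.7 CPM (median 32.3), also apart (-0.55, SE 0.10, FDR = 0.00121). Hnrnpdl, an RNA-binding protein, ran from 170 to 194 CPM (median 184) against 198 to 255 CPM (median 240), again apart (-0.38, SE 0.07, FDR = 0.00121). Further members were the Hsp90 cochaperone Cdc37 (-0.51), the Hsp70 cochaperone Dnajb6 (-0.41), the translation factor Eif4h (-0.61), the RNA-binding protein Ewsr1 (-0.52) and the adaptor of caspase signalling Cradd (-0.65). The remaining 6 were Txnl1 (-0.50), Mvb12a (-0.54), the tRNA-modifying enzyme Lcmt2 (-0.75), Lrrc3b (-0.59), Tmem86a (-0.71) and Vps72 (-0.54), FDR = 0.00121 to 0.00179. Of these 15 genes 4 did not overlap, and all 15 were called without each mouse, in edgeR and after the correction for length and GC described below.

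Of the genes called in all 22 repeats some lay outside the naming rule and were chosen after their values were seen. Pcbp4, an RNA-binding protein whose span overlaps Gpr62, ran from 31 to 89.4 CPM (median 39.7) in KO estrus mice and from 60.2 to 106 CPM (median 88.6) in KO males, with 5 of 6 estrus mice below every male (-0.94, SE 0.18, FDR = 0.00211). Map2, a microtubule protein of dendrites, ran from 387 to 683 CPM (median 494) against 288 to 389 CPM (median 371) (0.42, SE 0.09, FDR = 0.00419). Ago2, which carries microRNAs, ran from 72 to 119 CPM (median 97.2) against 61.4 to 78.5 CPM (median 69.2) (0.41, SE 0.09, FDR = 0.00416). Ly6h, a modulator of nicotinic receptors, ran from 35.1 to 70 CPM (median 53.7) against 67.7 to 110 CPM (median 88.7) and fell by 0.82 on the log2 scale (SE 0.18, FDR = 0.00517).

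**Figure D3:**
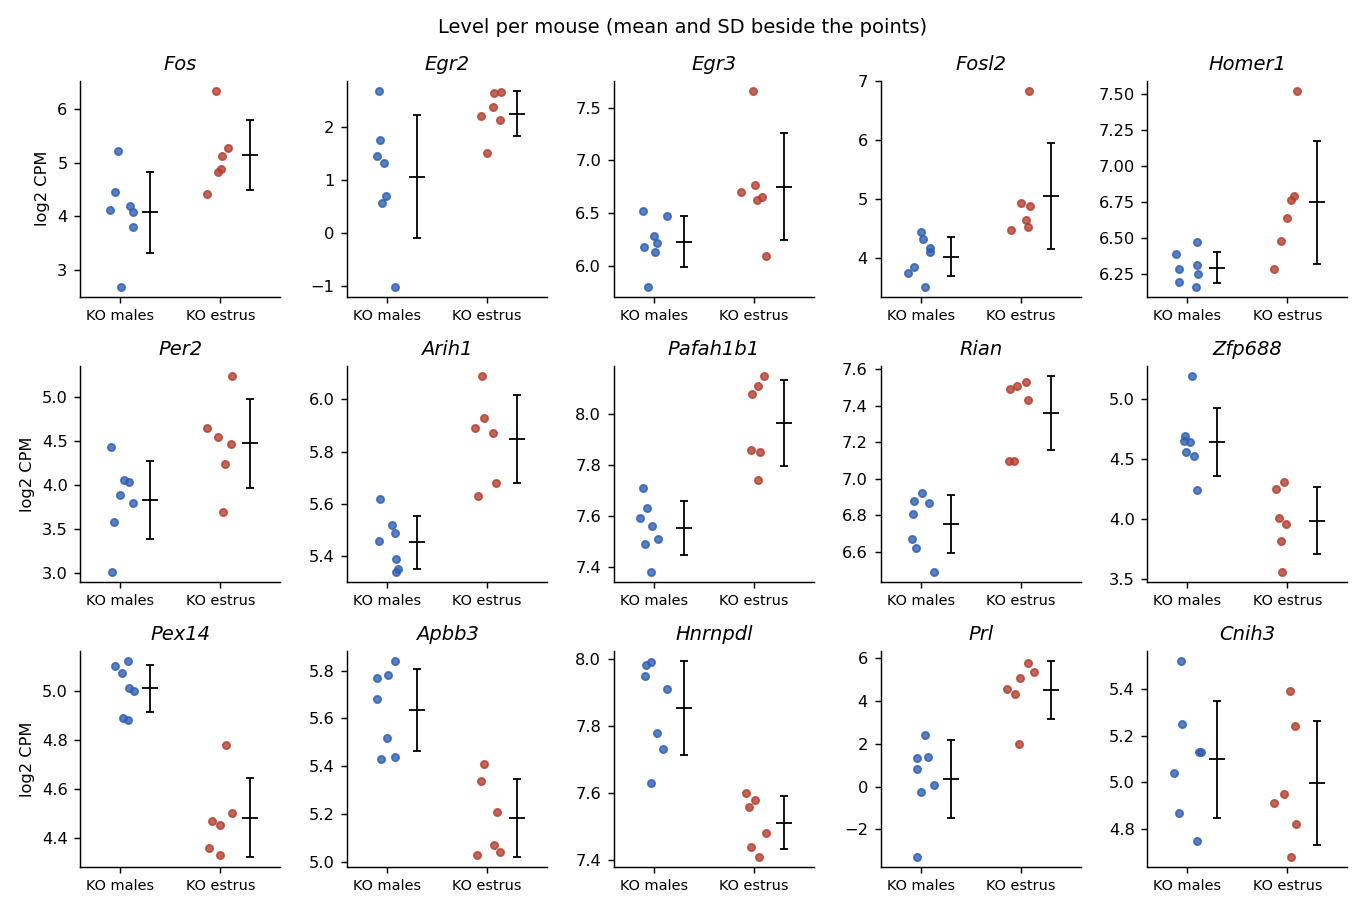
Each panel shows 1 gene, each point 1 mouse, in log2 CPM on the y axis, with KO males in blue and KO estrus mice in red and the mean and SD beside them. Arih1, Pafah1b1, Rian, Pex14, Apbb3 and Hnrnpdl do not overlap between the groups, Egr2, Fos and Per2 do, and Cnih3 has a log2 fold change of 0.00.

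The largest fold changes, the 6 highest and the 6 lowest among the genes called, belonged mostly to low transcripts, and none of the 12 kept its call without each mouse. Prl, the pituitary hormone prolactin, ran from 3.97 to 54.9 CPM (median 29.1) in KO estrus mice and from 0.0932 to 5.43 CPM (median 1.74) in KO males. Of the KO estrus mice 5 lay above every male, and Prl rose by 4.81 (SE 1.31, FDR = 0.0193). The call was lost without male 2591 or without estrus mouse 12_2, with FDRs up to 0.0742. Of the 9 pituitary genes listed 3 were tested. Growth hormone, Gh, ran from 1.31 to 43.2 CPM against 0.687 to 18.8 CPM (2.41, SE 1.08, FDR = 0.16), and Pomc from 3.1 to 20.9 CPM against 3.01 to 17.7 CPM (0.99, SE 0.52, FDR = 0.246). The sum of the 3 ran from 12.8 to 119 CPM in KO estrus mice and from 3.99 to 28.3 CPM in KO males, and its part in the Prl difference was not tested. Dock8, a guanine nucleotide exchange factor known from immune cells, ran from 1.37 to 2.24 CPM (median 1.62) against 0.43 to 1.2 CPM (median 0.782), apart in all mice (1.23, SE 0.27, FDR = 0.0053). Its call was lost without male 2591 or estrus mouse 12_3, with FDRs up to 0.0653. Gm47088 (2.28, FDR = 0.0316) and Gm38380 (1.26, FDR = 0.036) lie within Homer1 and Ncoa2, so their reads may belong to those genes.

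Among the largest decreases were Cdc20, an activator of the anaphase-promoting complex, at 0.437 to 0.765 CPM (median 0.586) in KO estrus mice against 0.939 to 2.09 CPM (median 1.42) in KO males. The groups did not overlap, yet the SE was wide (-1.25, SE 0.40, FDR = 0.0417), and 7 of the 13 left-out mice ended the call. Ngfr, the low-affinity neurotrophin receptor, ran from 0.208 to 1.74 CPM against 0.758 to 1.82 CPM (-1.20, SE 0.35, FDR = 0.027). Asic4, an acid-sensing ion channel family member, fell by 1.13 (SE 0.30, FDR = 0.0176) and the muscle regulator Myod1 by 0.99 (SE 0.29, FDR = 0.0303). Gm13530 (-1.21, FDR = 0.0194) and Gm48508 (-1.13, FDR = 0.034) completed this group. Plin4, a lipid droplet coat protein, ran from 0.814 to 2.85 CPM (median 2.11) against 0.392 to 1.43 CPM (median 0.685), with 5 of 6 KO estrus mice above every male, and did not pass the threshold (1.58, SE 0.56, FDR = 0.0686).

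Immediate early genes had the highest median of the gene lists other than the 3 pituitary genes. Of 18 genes 7 rose and 0 fell, against 4.26% of all autosomal genes called higher, and 15 had a positive fold change, with a median of 0.40 where the median over all autosomal genes was -0.002. The genes were Fos, Fosb, Fosl2, Egr2, Egr3, Homer1 and Nr4a2, of which Fosb and Nr4a2 were named after their values were seen. Promoters of 6 of the 7 matched the RefSeq windows of build GRCm38.p6, which hold 250 bases before and 50 after the start, and 4 had a single window. These 4 are printed in the direction of transcription, to show the sequence at the start of called immediate early genes. Capitals mark TGACG on either strand (CGTCA on the other), the core of the cyclic AMP response element TGACGTCA, which holds it on both strands and so overlaps it.
Fos, chr12:85473640-85473939, plus strand: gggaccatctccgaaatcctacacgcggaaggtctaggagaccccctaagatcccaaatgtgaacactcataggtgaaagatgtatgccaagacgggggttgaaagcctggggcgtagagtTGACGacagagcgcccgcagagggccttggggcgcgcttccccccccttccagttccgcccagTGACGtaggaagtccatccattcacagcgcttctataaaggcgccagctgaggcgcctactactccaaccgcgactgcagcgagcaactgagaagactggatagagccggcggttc
Fosb, chr7:19309996-19310295, minus strand: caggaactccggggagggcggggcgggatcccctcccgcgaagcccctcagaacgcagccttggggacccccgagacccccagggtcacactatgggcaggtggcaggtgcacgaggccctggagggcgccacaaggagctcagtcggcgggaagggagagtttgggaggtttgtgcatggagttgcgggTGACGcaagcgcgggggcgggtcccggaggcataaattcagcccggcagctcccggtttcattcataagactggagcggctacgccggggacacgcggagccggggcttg
Fosl2, chr5:32136222-32136521, plus strand: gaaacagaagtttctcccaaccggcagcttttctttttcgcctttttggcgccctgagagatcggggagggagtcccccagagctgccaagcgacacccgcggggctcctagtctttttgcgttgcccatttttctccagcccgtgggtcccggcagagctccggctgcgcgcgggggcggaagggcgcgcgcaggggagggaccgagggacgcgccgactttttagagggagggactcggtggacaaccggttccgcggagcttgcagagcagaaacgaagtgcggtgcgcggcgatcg
Nr4a2, chr2:57123954-57124253, minus strand: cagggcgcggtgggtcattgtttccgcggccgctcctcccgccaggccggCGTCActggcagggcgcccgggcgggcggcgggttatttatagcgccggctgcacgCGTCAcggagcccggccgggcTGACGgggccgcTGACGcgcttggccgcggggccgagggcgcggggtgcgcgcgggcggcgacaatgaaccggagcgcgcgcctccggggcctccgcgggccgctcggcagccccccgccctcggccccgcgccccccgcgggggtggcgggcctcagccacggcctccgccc
The windows hold 2 copies in Fos, 1 in Fosb, 0 in Fosl2 and 4 in Nr4a2, and the whole element TGACGTCA is in none of the 4. Of all 32851 windows 20.8% hold TGACG and 1.79% hold TGACGTCA.

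Fos, which encodes a subunit of the AP-1 transcription factor, ran from 21.2 to 81.3 CPM (median 32.2) in KO estrus mice and from 6.43 to 37.1 CPM (median 17.4) in KO males. The groups overlapped, with 2 KO estrus mice above the highest male, and Fos rose by 1.20 (SE 0.29, FDR = 0.00989). Its call was lost without male 2591 or estrus mouse 12_3, with FDRs up to 0.109. Fosl2, a further AP-1 subunit, ran from 22.4 to 114 CPM (median 27.3) against 11.4 to 21.8 CPM (median 17.3), with all 6 KO estrus mice above every male (0.81, SE 0.18, FDR = 0.0053). Egr3, a zinc finger transcription factor, ran from 68 to 202 CPM (median 102) against 55.7 to 91.8 CPM (median 74.5) and rose by 0.44 (SE 0.10, FDR = 0.00631). Homer1, a postsynaptic scaffold gene with an activity-induced short form, ran from 77.5 to 183 CPM (median 104) against 71.3 to 88.3 CPM (median 77.9) and rose by 0.42 (SE 0.10, FDR = 0.00624). Fosl2, Egr3 and Homer1 were called without each mouse in turn. Egr2 overlapped fully, at 2.82 to 6.3 CPM against 0.484 to 6.39 CPM, and rose by 1.54 (SE 0.43, FDR = 0.0214), a call that 5 of the 13 left-out mice ended.

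KO estrus mouse 12_1, the youngest at 13 weeks, had the highest Fos, Fosb, Fosl2, Egr3 and Homer1. This mouse also had the lowest sample weight of the KO estrus mice, 0.392. Its Fosb was 76.6 CPM, while the other KO estrus mice had 6.59 to 10.6 CPM and KO males 4.3 to 10.7 CPM. Without it Fosb was no longer called (0.48, FDR = 0.0628), while Fos (1.10, FDR = 0.0175), Fosl2 (0.68, FDR = 0.00783), Egr2 (1.55, FDR = 0.0242), Egr3 (0.38, FDR = 0.0111), Homer1 (0.36, FDR = 0.0114) and Nr4a2 (0.48, FDR = 0.0437) were. The count of immediate early genes called higher ranged from 3 to 9 with 1 mouse left out, the lowest without male 2591 or estrus mouse 12_3. It was 4 in edgeR, 2 without sample weights and 1 with no filter on low counts, and no member was called lower in any setting.

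Immediate early genes were also set beside the other groups, whose comparisons with KO males share those males. Vaginal lavage is described for females and not for males, and its part in these genes was not tested. Fos differed from KO males by -0.11 in KO diestrus (FDR = 0.813), 0.87 in KO metestrus (FDR = 0.172) and 1.00 in KO proestrus (FDR = 0.121). Tested directly, KO estrus mice had more Fos than KO diestrus mice (1.31, SE 0.31, FDR = 0.00136). In that comparison limma called 19.6% of autosomal genes higher and 11.2% lower in KO estrus, 4779 in all, whereas edgeR called 14. In WT mice Fos had a median of 21.5 CPM in estrus and 18.7 CPM in males (0.33, SE 0.36, FDR = 0.867). The difference between the genotypes, tested as an interaction, was 0.87 for Fos (SE 0.46, unadjusted p = 0.0655 from limma) and had an FDR of 1.

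Of 18 circadian clock genes 4 rose and 0 fell, 6 had a negative fold change and the median was 0.16, where 4.26% of all autosomal genes were called higher. The count was 1 in edgeR, in DESeq2, without sample weights and after the correction for length and GC described below, and 0 with no filter on low counts. Per2, a repressor of the clock loop, ran from 12.9 to 37.8 CPM (median 22.8) in KO estrus mice and from 8.04 to 21.6 CPM (median 14.8) in KO males, with 4 of 6 estrus mice above every male (0.57, SE 0.13, FDR = 0.00687). The activators Clock (0.29, FDR = 0.0241) and Npas2 (0.36, FDR = 0.038) and the output factor Tef (0.25, FDR = 0.043) rose as well. The count ranged from 0 to 5 with 1 mouse left out and was 0 without male 2591 or estrus mouse 12_3, where Per2 also lost its call (FDR up to 0.0721). In WT mice Per2 differed by -0.08 (SE 0.16, FDR = 0.926), and the interaction had an unadjusted limma p of 0.00238 and an FDR of 1. Tissue was collected in the afternoon per the study's methods, but the hour for each mouse is not among the values used, so its part was not tested.

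Of 23 postsynaptic scaffold and CaMKII genes 5 rose and 0 fell, with a median of 0.13, where 4.26% of all autosomal genes were called higher. The list has long transcripts, with a median exon length of 9189 bases, and after the correction for length and GC 1 member was higher and 1 lower. In edgeR and without sample weights 1 was called, and with no filter on low counts 0. Camk2a, the alpha subunit of the kinase, ran from 1550 to 2330 CPM (median 2040) in KO estrus mice and from 1410 to 1750 CPM (median 1590) in KO males (0.31, SE 0.09, FDR = 0.0323). Dlg2, a scaffold at the postsynaptic density, ran from 95.6 to 130 CPM against 79.4 to 95.5 CPM (0.34, SE 0.09, FDR = 0.013). The lowest KO estrus mouse and the highest KO male were level, both at 6.58 log2 CPM, and the span of Dlg2 overlaps 8 other tested genes. With 1 mouse left out 1 to 6 members were called higher, the fewest without estrus mouse 12_2 or 12_3. Among receptors for glutamate and GABA few members passed. The 13 NMDA and kainate receptor genes had 0 calls (median 0.14) and the 14 GABA-A receptor genes 0 (median 0.09). Of the 21 AMPA receptor and auxiliary genes, the family that Cnih3 belongs to, 1 rose, the auxiliary subunit Cacng7 (0.58, SE 0.16, FDR = 0.0219, median of the list 0.01), and it lost its call when any of 6 mice was left out. Of 26 calcium and sodium channel genes 0 were called (median 0.12), and of 57 potassium channel genes 1 fell (median 0.09). Among 21 synaptic vesicle genes 1 rose and 1 fell. The one that fell was Rab3a, a vesicle GTPase, at 909 to 1260 CPM (median 966) against 1250 to 1470 CPM (median 1330) (-0.40, SE 0.08, FDR = 0.00323).

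Of 10 genes for steroid hormone receptors and their coactivators 3 rose, all of them coactivators, and 0 fell, with a median of 0.13. Of all autosomal genes 4.26% were called higher, and the list has long transcripts, with a median exon length of 7789.5 bases. Ncoa1 ran from 156 to 222 CPM (median 185) in KO estrus mice and from 135 to 175 CPM (median 159) in KO males (0.28, SE 0.07, FDR = 0.0151). Ncoa2 (0.34, FDR = 0.0337) and Ncoa3 (0.51, FDR = 0.035) had 4 of 6 KO estrus mice above every male. With 1 mouse left out 0 to 3 were called, with 0 without male 2589 or 2591 or estrus mouse 12_2 or 12_3, and after correction for length and GC 0 were. Genes known to respond to estrogen in other tissues gave 0 higher and 1 lower of 17 (median -0.10). The lower gene was Igfbp4, which binds insulin-like growth factors, at 67.5 to 99.9 CPM (median 75.8) against 103 to 130 CPM (median 109) without overlap (-0.45, SE 0.10, FDR = 0.00517). No member passed among 24 glucocorticoid and FoxO responsive genes (median 0.11), 10 neurosteroid synthesis genes (median -0.09) or 12 thyroid hormone genes (median 0.00). Of 17 neurotrophin and growth factor genes Ngfr alone was called (median 0.14).

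Of 35 splicing factor genes 4 rose and 1 fell, with a median of 0.13, and after correction for length and GC 1 rose and 1 fell. Of all autosomal genes 4.26% were called higher and 3.37% lower. Tra2a, which promotes exon inclusion, ran from 41.3 to 47.1 CPM against 32.1 to 38.9 CPM without overlap (0.38, SE 0.11, FDR = 0.021). Cirbp, an RNA-binding protein induced by cold, ran from 166 to 237 CPM (median 204) in KO estrus mice and from 270 to 380 CPM (median 295) in KO males, the one member that fell (-0.52, SE 0.11, FDR = 0.00504). All KO estrus mice lay below all males for Cirbp, and its call held without each mouse. Of the 20 spliceosomal snRNP core genes 0 rose and 3 fell (median -0.10), and 0 were called after the correction. Among the 3 was Snrpb (-0.39, FDR = 0.0199), which lost its call without male 2591 or estrus mouse 12_2. Of 10 nuclear-retained non-coding RNAs 2 rose, Rian and Snhg14 (0.40, SE 0.11, FDR = 0.0184), and the list median was 0.30. After the correction 1 of these RNAs was called higher. Median exon lengths were 7278 bases for splicing factors, 2685.5 for snRNP core genes and 13691 for the nuclear-retained RNAs.

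Of 36 proteasome subunit genes 0 rose and 4 fell, 35 had a negative fold change and the median was -0.14. Psmb5, a catalytic subunit, ran from 151 to 203 CPM (median 168) in KO estrus mice and from 190 to 345 CPM (median 225) in KO males (-0.35, SE 0.11, FDR = 0.0322), and Psmd4 fell by 0.31 (FDR = 0.0242). Of 82 nuclear-encoded respiratory chain genes 0 rose and 5 fell (3.37% of all autosomal genes fell), with a median of -0.08. Ndufs3 of complex I ran from 178 to 214 CPM against 219 to 365 CPM without overlap (-0.29, SE 0.08, FDR = 0.0268), and Ndufa10 fell by 0.33 (FDR = 0.0197). With 1 mouse left out 0 to 8 proteasome and 0 to 10 respiratory chain genes were called lower. Both counts were 0 without male 2591 or estrus mouse 9_1 or 12_2, and after correction for length and GC they were 1 and 0. None of 76 cytosolic ribosomal protein genes (median -0.03) or 24 histone genes (median -0.13) was called. Stress lists gave few calls, with 1 higher and 1 lower of 15 heat shock genes (median -0.05), 0 and 1 of 18 endoplasmic reticulum chaperones (median -0.01), and 1 and 2 of 22 Atf4 and amino acid response genes (median -0.06). The last were Cebpg, described above, the amino acid transporter subunit Slc3a2 (-0.37, FDR = 0.00736) and Chac1 (-0.63, FDR = 0.0107). Of 21 cholesterol synthesis genes 0 rose and 1 fell (median -0.01), of 21 antigen presentation and interferon genes 0 and 1 (median -0.03), and of 46 clustered protocadherin genes 1 and 0 (median 0.15).

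No cell type marker list had more than 2 members called, where 4.26% of all autosomal genes were called higher and 3.37% lower. After correction for length and GC the calls among myelin, microglia, dentate granule cell and oligodendrocyte precursor genes were 0, and 1 astrocyte gene was called. All these lists had 0 calls in edgeR, without sample weights and with no filter on low counts. With age as a covariate myelin, microglia and astrocyte genes had 0 calls, and dentate granule cell and precursor genes 1 each. DESeq2 called 3 dentate granule cell genes, 1 astrocyte gene and 1 precursor gene, and 0 myelin or microglia genes. In bulk tissue fewer cells of a type and less RNA per cell cannot be told apart. Of 17 mature oligodendrocyte and myelin genes 0 rose and 2 fell (median -0.11), Mag at 78.4 to 138 CPM (median 116) against 132 to 193 CPM (median 154) (-0.64, SE 0.19, FDR = 0.0281) and Cnp (-0.37, FDR = 0.0371). The summed level of the list ran from 3220 to 5200 CPM in KO estrus mice and from 4140 to 4940 CPM in KO males. Mag in KO diestrus mice was below KO males (-1.74, FDR = 8.11e-10), and KO estrus mice had more of it than KO diestrus mice (1.10, SE 0.20, FDR = 6.81e-05). These FDRs are from limma, which called 4779 autosomal genes between KO estrus and KO diestrus where edgeR called 14. Median ages were 12.43 weeks in KO diestrus mice, 16.29 in KO estrus mice and 18.29 in KO males. Age thus differed along with these groups, and its part in the Mag differences was not tested. Of 11 microglia genes 0 rose and 2 fell (median -0.16), among them Tmem119 (-0.41, FDR = 0.0352), with summed levels of 223 to 317 CPM against 256 to 366 CPM. Astrocyte genes had 2 of 14 higher, Glul (0.30, FDR = 0.0285) and Fgfr3 (0.32, FDR = 0.0479), with sums of 3590 to 5170 CPM against 3210 to 3670 CPM. Dentate granule cell genes had 2 of 12 higher, Prox1 (0.33, FDR = 0.026) and Glis3 (0.57, FDR = 0.0189), with sums of 471 to 735 CPM against 435 to 838 CPM. Oligodendrocyte precursor genes had 2 of 12 higher (median 0.14). Of the genes of CA1 (10) and of CA2 and CA3 (12) pyramidal cells, interneurons (18), endothelium and pericytes (13), choroid plexus (12), meningeal fibroblasts (9), blood (4) and thalamus (8) none was called, with medians of 0.08, -0.10, -0.10, -0.04, -0.18, 0.21, -0.10 and -0.01 in that order. The calls of Mag, Cnp, Tmem119, Glul, Fgfr3, Prox1 and Glis3 were each lost without at least 3 of the mice.

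**Figure D4:**
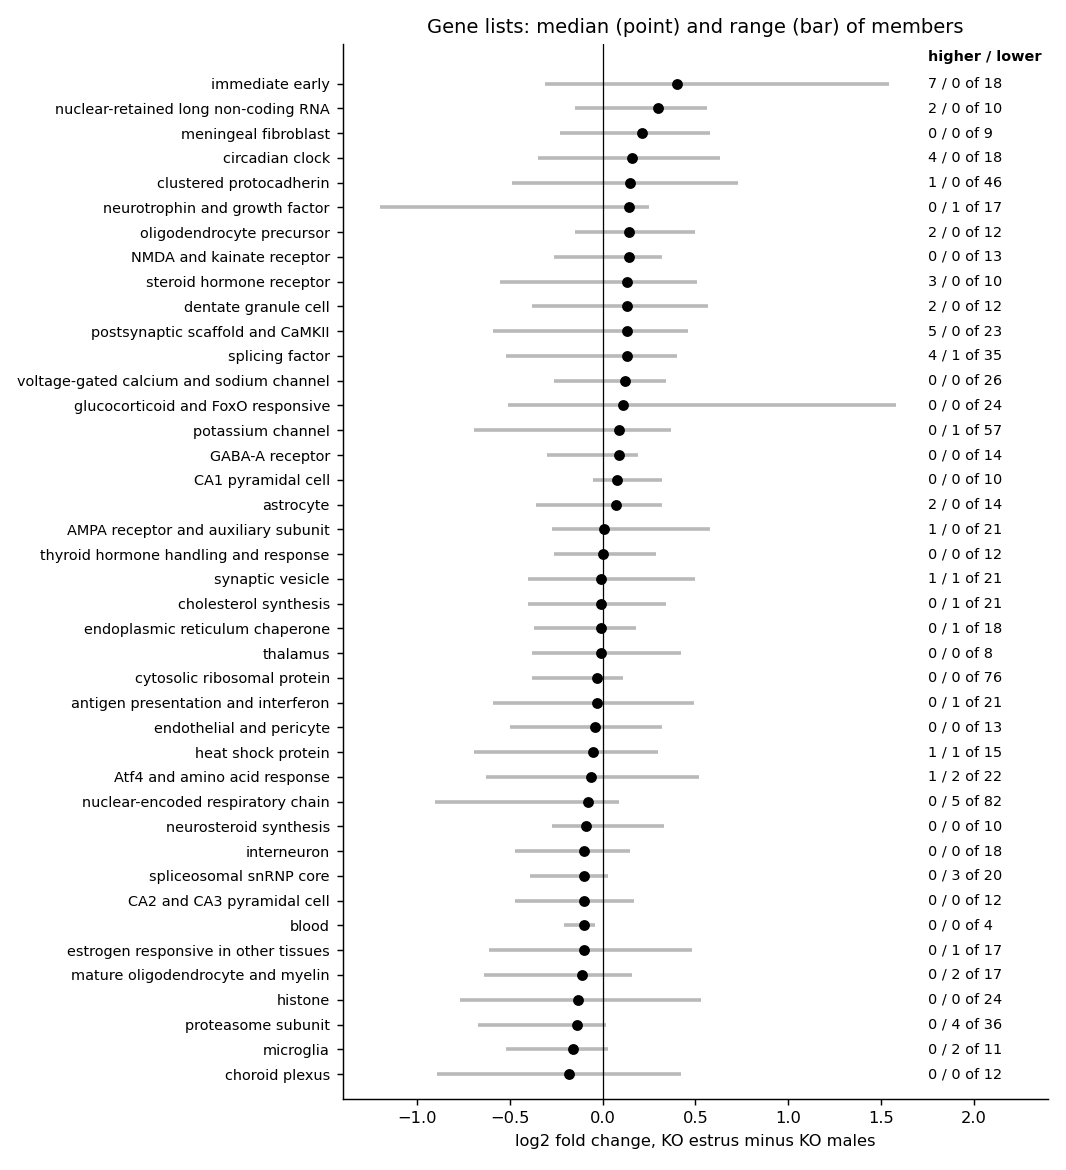
The y axis names gene lists and the x axis gives log2 fold changes of KO estrus minus KO males, with the median of each list as a point and the range of its members as a bar, and counts called higher and lower at the right. Immediate early genes have the highest median shown (0.40), and the 3 pituitary genes (median 2.41) are left out for scale.

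The direction of the calls followed gene length and base composition. Genes called higher had a median exon length of 8464 bases and a GC content of 46.0%, and genes called lower 2921.5 bases and 55.1%, where all autosomal genes tested had 4050 bases and 49.6%. In the decile of longest genes 17.2% were called higher and 0.514% lower, and in decile 4 by length 0.641% and 6.61%. Per mouse, as a description of the same libraries, the level of the longest 25% of genes was set against that of the shortest 25%. The difference averaged 0.14 log2 units in KO estrus mice (SD 0.165, n = 6) and -0.128 in KO males (SD 0.284, n = 7), and the groups overlapped. For the GC-poorest 25% against the GC-richest 25% the means were 0.0987 (SD 0.0912) and -0.0887 (SD 0.0824), a difference of 0.187, also with overlap. The lowest value of the first measure, -0.688, belonged to male 2590, which had the lowest sample weight in the comparison, 0.28.

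A correction of each library for length and GC, added after the data were seen, left 401 calls, 164 higher and 237 lower, where 663 and 524 were called without it. Of the 1187 calls 319 were kept, and 9 changed the sign of their fold change. The corrected calls had median exon lengths of 4626 bases (higher) and 4519 bases (lower). All 30 genes described above by smallest FDR were called after the correction, as were 4 of the 7 immediate early genes called (list median 0.44), whereas none of the coactivators Ncoa1, Ncoa2 and Ncoa3 was. The biological or technical origin of the length and GC difference was not tested.

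**Figure D5:**
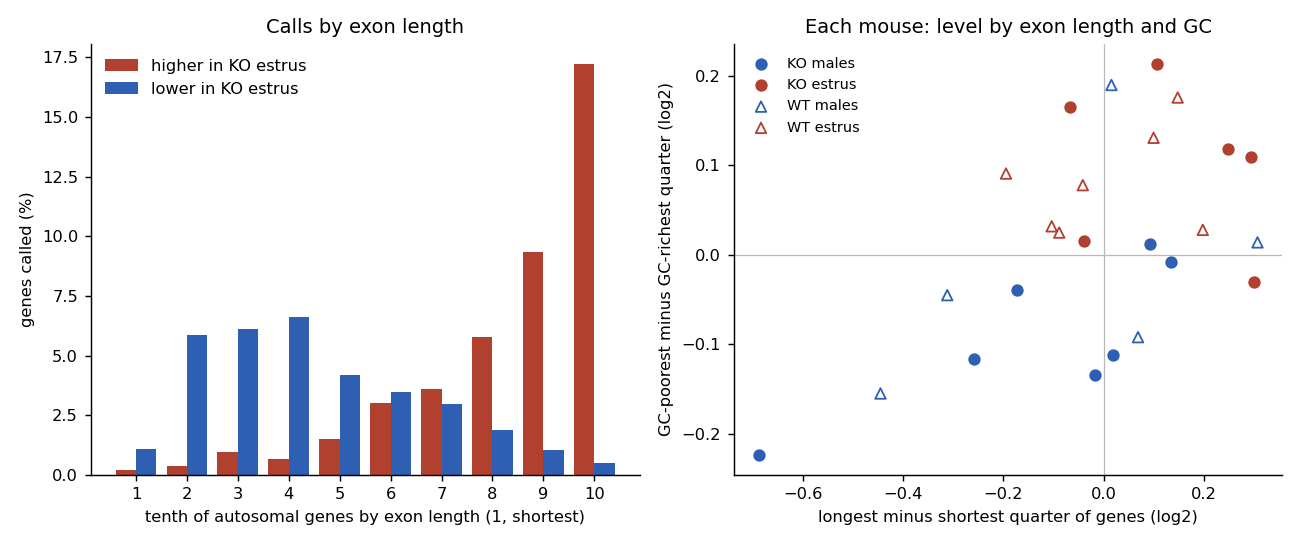
Left, percent of autosomal genes called higher (red) and lower (blue) in KO estrus mice for each decile of genes by exon length on the x axis. Right, for each mouse, the difference in log2 level between the longest 25% and shortest 25% of genes (x axis) and between the GC-poorest 25% and GC-richest 25% (y axis), with KO mice as filled circles and WT mice as open triangles. Calls in the decile of longest genes are 17.2% higher and 0.514% lower, and KO estrus mice reach from -0.03 to 0.214 on the y axis, where KO males reach from -0.224 to 0.012.

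The same comparison in WT mice gave 0 autosomal genes at an FDR under 0.05 in limma and 0 in edgeR, 2 in DESeq2, and 1234 genes at an unadjusted p under 0.05. The WT and KO comparisons share no library, but both come from 1 fit. Per the study's methods, some WT mice came from Cnih3 heterozygote pairs and others from WT pairs, so not all were littermates of KO mice. Of the 1187 genes called in KO mice 1143 (96.3%) had the same sign in WT mice, against 72.0% of all autosomal genes, and the median absolute log2 fold change was 0.36 in KO and 0.18 in WT mice. Over all autosomal genes the median absolute log2 fold change was 0.14 in KO and 0.11 in WT mice. The genes called were selected on their KO values and not on their WT values. That selection by itself favours larger sizes in KO mice, so the 2 medians of the called genes do not measure an effect of genotype. After correction for length and GC, 387 of the 401 calls (96.5%) had the same sign, against 69.1% of all. Cirbp was at medians of 224 CPM in WT estrus mice and 294 CPM in WT males (-0.43, SE 0.13, FDR = 0.47), Rian differed by 0.35 (SE 0.12, FDR = 0.524) and Prl was at 26.9 and 1.63 CPM (3.54, SE 1.35, FDR = 0.592). With 1 WT mouse left out 0 to 187 genes were called in WT mice, 187 without male 1949, 98 without 2052, 7 without 19_1 and 5 without 2015. The parental cross differed between many WT estrus mice and WT males, and its part was not tested.

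Whether the difference was particular to KO mice was tested by the interaction of genotype with the estrus-male difference. No autosomal gene passed in limma, edgeR or DESeq2, or with any mouse left out, and 383 had an unadjusted p under 0.05 in limma. The smallest unadjusted p belonged to Grk5, a kinase of G protein-coupled receptors, with a fold change of 0.34 in KO and -0.41 in WT mice. It was followed by Hfm1 with 0.58 and -0.63, Sall3 with 0.74 and -0.10, Gm33195 with -0.78 and 0.72 and Gm9796 with 0.53 and -0.47. Each of these 5 genes had an interaction FDR of 1 in limma, and only Sall3 among them was called in KO mice. Of the 1187 genes called in KO mice 116 had an unadjusted interaction p under 0.05. In simulated data the interaction test recovered 68.5% of genes changed by 1 log2 unit, and changes smaller than that were not simulated.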

How the data were processed

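Dorsal hippocampal RNA of 55 mice in 10 groups was sequenced by the authors as polyadenylated RNA with the SMARTer Ultra Low kit. The counting is not stated to use strand, so reads of overlapping genes are uncertain. Per the labels and methods, reads were aligned to GRCm38 with STAR 2.7.9a and unique reads were counted per gene with featureCounts 2.0.3. The authors deposited raw gene counts, used here for every value, and a table of log2 CPM of the genes they tested, used only as a check (largest difference 5e-14 over 16164 genes). Of the count columns, 1 belongs to no listed mouse and was left out. The 55774 lines repeat 287 genes, leaving 55487.

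A gene entered the test if 10 or more libraries had over 1 CPM of it. After removal of 5 ribosomal genes, 16168 remained, of which 15549 are autosomal. Analyses used R 4.3.3, TMM in edgeR 4.0.16 and voomWithQualityWeights in limma 3.58.1, with 1 mean per group over all 55 libraries. FDRs follow Benjamini and Hochberg over all 16168 genes. CPM values printed are scaled by TMM, and levels were compared only within a gene. Lengths, GC content and positions are from GENCODE M21 of GRCm38. The p-values measure the spread between mice.

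Named genes were the 15 with the smallest FDR in each direction, the 6 called with the largest fold change in each direction, Cnih3, Plin4 and Prl, up to 4 members with the smallest p of each list and the 5 with the smallest interaction p. Fosb, Nr4a2, Pcbp4, Ly6h, Map2 and Ago2 fell outside this rule. Some members that the rule names are not reported here. Members and lists were chosen with earlier results of these data known.

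Alternatives were edgeR's quasi-likelihood test, DESeq2 1.42.0, no sample weights, RLE factors, no filter, age as a covariate, only the groups compared, only mice of 16 weeks or more, other FDR limits, each mouse left out, and a loess correction for length and GC. In simulated data with 200 of 16168 genes changed by 1 log2 unit, limma recovered 86.0% for KO estrus against KO males with 4.44% false calls. For the same comparison edgeR recovered 85.0% with 4.49% and DESeq2 86.5% with 9.42%. The simulated libraries had no difference in quality and no shift by length or GC, and smaller changes were not simulated. These rates therefore do not measure false calls among the genes called in the data.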

Additional observations from a re-analysis of the deposited data

Results flagged for a closer look

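Single mice stood apart from the rest of their group for 17 of the 176 gene and group pairs checked among the genes named, by Dixon's test at its 95% limit. Chance flags about 1 in 20 at that limit if the pairs are independent. The pairs share mice and many of the genes were named for their values, so 17 of 176 cannot be read against that rate. Values are log2 CPM, with the nearest other mouse of the group in parentheses. KO male mouse 2129 had Lats1 at 4.25 (3.9). KO male mouse 2590 had Ap2b1 at 6.94 (7.23), Ngfr at -0.38 (0.35), Ncoa2 at 4.85 (5.26), Ncoa3 at 3.74 (4.65), Psmd4 at 8.59 (8.22), Psmb5 at 8.43 (7.87), Ndufs3 at 8.51 (8.04). KO male mouse 2128 had Zfpm2 at 3.93 (4.27). KO estrus mouse 8_4 had Pex14 at 4.78 (4.5), Vps72 at 5.96 (5.52), Cradd at 3.42 (2.91). KO male mouse 1950 had Gm47088 at -6.79 (-1.14). KO estrus mouse 12_1 had Myod1 at -1.95 (-0.39), Fosb at 6.26 (3.41), Fosl2 at 6.84 (4.94), Gh at 0.4 (3.63). Without mouse 12_1 Fosl2 was still called and Fosb was not. Without male 2590 the comparison gave 1049 calls in place of 1187.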

How the results depend on the processing

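KO estrus against KO males gave 1187 autosomal calls as reported. RLE factors (1150), only the groups compared (822) and only mice of 16 weeks or more (1208) stayed within 1.5 times of this. It gave 148 in edgeR, 376 in DESeq2, 115 without sample weights, 194 with no filter on low counts, 523 with age as a covariate, 401 after correction for length and GC, 218 at an FDR under 0.01 and 2056 under 0.1. With 1 mouse left out it ranged from 199 to 1740. DESeq2 left 3296 autosomal genes without an adjusted p. WT estrus against WT males gave 0 as reported, 2 in DESeq2, 2 after the correction, 10 with no filter, 1 with only the groups compared, and 0 to 187 with 1 mouse left out. The interaction gave 0 in every setting run. KO estrus against KO diestrus gave 4779 as reported, 14 in edgeR, 150 in DESeq2, 243 without sample weights, 2729 with age, 2700 with no filter and 2351 at an FDR under 0.01, and 2549 to 5625 with 1 mouse left out, with 2549 without estrus mouse 12_2, 2639 without 9_1 and 2911 without diestrus mouse 532. The sample weights and the covariate were not tested as causes. Of the 88 genes named, 80 were called and 39 of these were called without each mouse. Over all their settings 419 values no longer passed the threshold, 11 newly passed and 1493 kept their side, and no call changed sign. No paired analysis was possible because the groups share no mouse numbers.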
